A study of Mus musculus with 13 samples.

Results

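The genes described here encode the machinery that stores neurotransmitter in synaptic vesicles and releases it when calcium enters the nerve terminal. The list holds 48 genes chosen by their symbol, of which 46 were measured among the 12009 genes of the count table. *Sv2c* and *Rims1*, the other listed genes, are not analysed here. By role, 10 of the measured members encode vesicle membrane and vesicle-associated proteins, and 10 encode SNARE proteins and their regulators. Synaptotagmins and a Doc2 protein, grouped here as calcium sensors, are encoded by 11. Active zone and priming factors are encoded by 10, and 5 belong to the Rab3 cycle.

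Synaptic vesicles are filled with transmitter, tethered at the active zone by large scaffold proteins, primed, and fused with the plasma membrane by SNARE proteins when synaptotagmins bind calcium. The ATPase NSF and its SNAP adaptors then take the SNARE complex apart for reuse. The locus coeruleus, the main noradrenergic nucleus of the brain, sends long axons to the forebrain and releases norepinephrine through this machinery, while its mRNA is largely made and translated in the cell bodies of the hindbrain.

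All mice carried 1 hemizygous transgene, *Slc6a2*-eGFP/*Rpl10a*, in which the promoter of *Slc6a2*, the gene of the norepinephrine transporter NET, drives an EGFP-tagged ribosomal protein. Translating ribosome affinity purification (TRAP) pulls the tagged ribosomes and their mRNA out of a homogenate, and the input is RNA of the same kind of homogenate before the pulldown, here hindbrain without cerebellum. Mice were 6 to 8 months old, and a library holds the pooled tissue of 2 sex-matched mice. They were injected on day 1 and day 7, each time with 50 mg/kg of the neurotoxin DSP-4, which NET carries into noradrenergic neurons, or with saline, and tissue was taken on day 14. The libraries were 6 of DSP-4 TRAP (replicates 1, 2, 3, 7, 8 and 9), 3 of saline TRAP (4, 6 and 12), 2 of DSP-4 input (2 and 7) and 2 of saline input (5 and 12). The authors dropped saline samples whose *Slc6a2* enrichment missed a threshold, so the saline TRAP libraries were selected on enrichment. The tag marks noradrenergic neurons of the hindbrain in general, not the locus coeruleus alone. The study names other brainstem noradrenergic groups, A1 and A2, and reports intact NET staining after DSP-4 in a region they supply. The share of each group in TRAP was not tested.

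Libraries held 17491357 to 29199550 counts. The noradrenergic label was checked with 11 marker genes, of which 10 were higher in TRAP and 0 lower, led by *Slc6a2* with a log2 fold change over input of 3.81 in DSP-4 mice and 4.75 in saline mice. TRAP was not free of other cells. Genes of inhibitory neurons were higher in TRAP for 4 of 6, serotonergic genes for 3 of 3 and astrocyte genes for 7 of 12. Cholinergic genes were higher for 1 of 5 and lower for 2, and excitatory neuron genes higher for 1 of 2 and lower for 1. Oligodendrocyte genes were higher for 2 of 12 and lower for 6 of 12. Microglial genes were higher for 0 of 12 and lower for 4 of 12. The markers' summed level in TRAP was 653 to 1220 CPM (counts scaled to a common library size by TMM) for the noradrenergic list. It was 1713 to 2252 CPM for inhibitory neurons, 5659 to 7257 CPM for astrocytes and 6366 to 12901 CPM for oligodendrocytes. In input the same sums were 309 to 362, 1363 to 1517, 5044 to 5492 and 7677 to 8789 CPM, in that order. Microglial markers summed to 300 to 485 CPM in DSP-4 TRAP, 282 to 324 CPM in saline TRAP and 359 to 452 CPM in input. The part of these other cells in the members' levels was not tested, and in bulk RNA fewer cells of a type and less RNA per cell cannot be told apart. In other mice given the same doses, the study counted locus coeruleus neurons and found no difference from saline. DSP-4 TRAP replicate 2 stood apart. It was the highest of the 6 DSP-4 TRAP libraries in 20 of the 46 members (43.5%, against 29.5% of all genes) and held the oligodendrocyte maximum of 12901 CPM, while the other DSP-4 TRAP libraries held 6366 to 8174 CPM. Saline input replicate 5 was the lowest input in 22 members (47.8%, against 29.6% of all genes) and the highest in 16 (34.8%, against 39.1%).

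More of the listed release genes were higher than lower in TRAP relative to the hindbrain input. In TRAP over input, averaged over both treatments, 24 of the 46 members were higher (52.2%, against 31.1% of all genes), 8 were lower (17.4%, against 29.0%) and 14 did not pass the test. The number lower was 5 without DSP-4 input replicate 7, without saline input replicate 12, with library totals or with a block for the homogenate that TRAP and input share (the replicate block), and 12 without DSP-4 TRAP replicates 2 and 3 together. The list was chosen with earlier results known, and 58 further release genes did not share its balance, with 32.8% higher and 29.3% lower. The test was edgeR's quasi-likelihood test with Benjamini-Hochberg adjustment over all 12009 genes, and a gene passed at an FDR under 0.1. The members' median log2 fold change was 0.44 (range −1.30 to 2.16), beside −0.01 for all genes. For comparison, 16 pan-neuronal genes outside the vesicle had a median of 0.48, with 11 higher and 4 lower. In 19 members all 9 TRAP libraries lay above all 4 input libraries (18.2% of all genes did), and in 3 members, *Vamp1*, *Napa* and *Napb*, all lay below (15.9% of all genes).

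**Figure D1:**
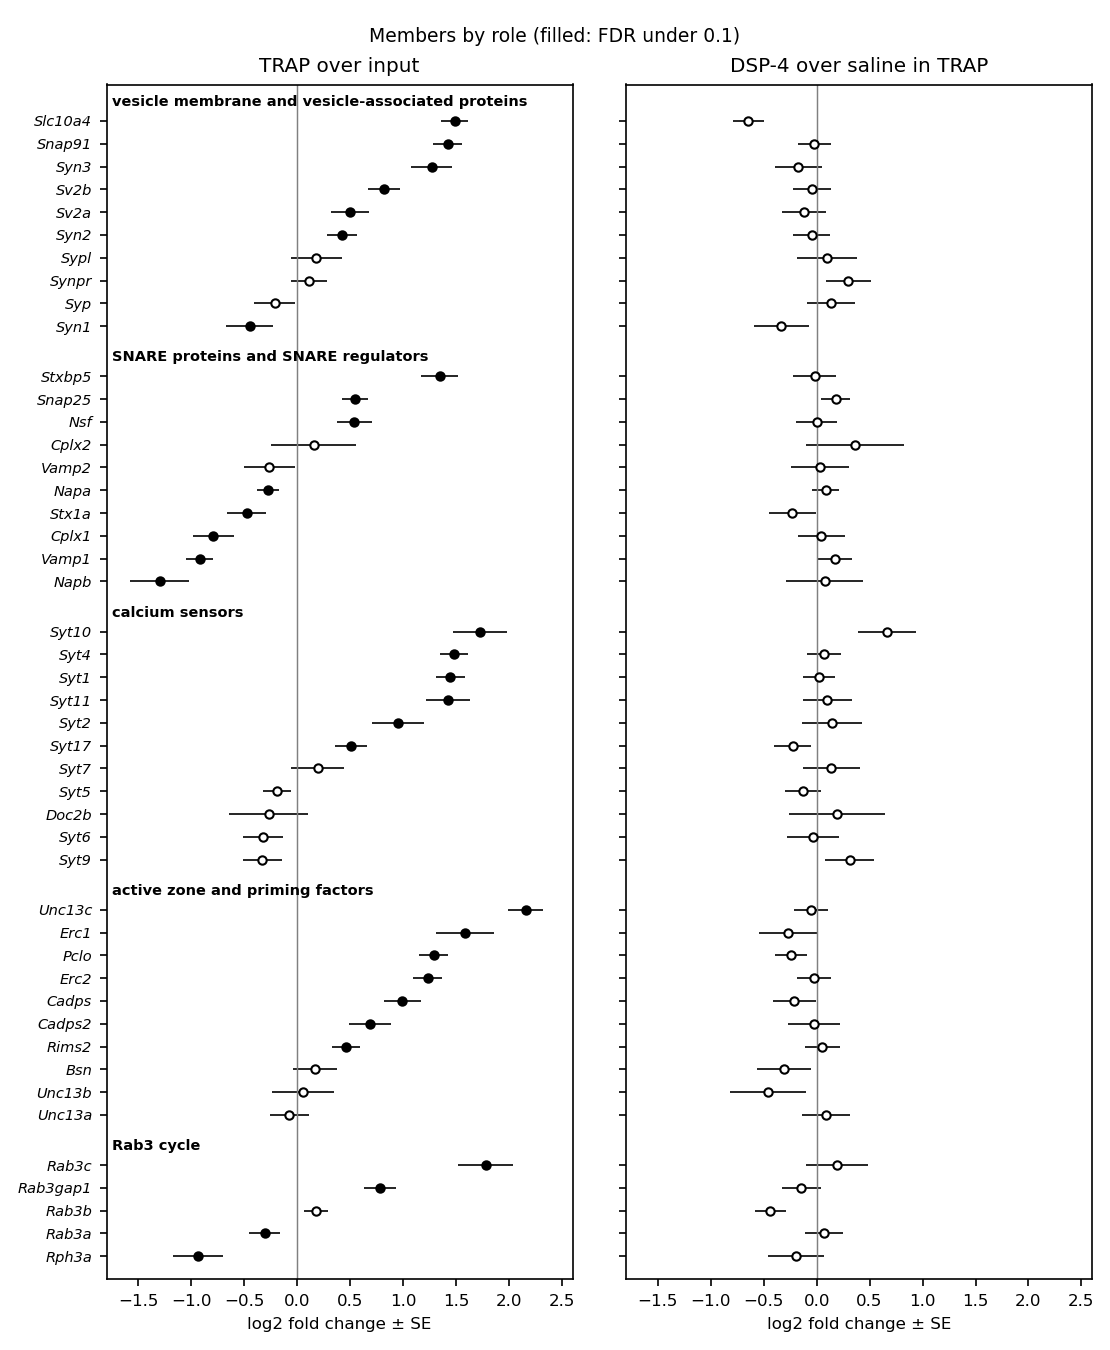
Log2 fold change ± SE of every measured member, grouped by role, for TRAP over input (left, 13 libraries) and DSP-4 over saline in TRAP (right, 9 libraries), with filled points for an FDR under 0.1. On the left 24 members are filled to the right of 0 and 8 to the left. On the right no point is filled, with *Slc10a4* at −0.65 and *Syt10* at 0.66 at the ends.

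The active zone and priming factors stood highest as a group. Of the 10 measured, TRAP was higher for 7 and lower for 0, with a median log2 fold change of 0.84. *Unc13c*, which encodes Munc13-3, one of the Munc13 proteins that ready docked vesicles for fusion, lies at chr9:73479422-73968966 on the minus strand (GENCODE vM21, GRCm38). It was at 84.4 to 114 CPM in DSP-4 TRAP (median 95.6) and at 88.8, 119 and 96.3 CPM in saline TRAP, against 23.6 and 15.6 CPM in DSP-4 input and 29.3 and 21.5 CPM in saline input. The lowest TRAP library was well above the highest input library, and TRAP exceeded input 4.46-fold (log2 fold change 2.16, SE 0.17, FDR = 1.89e-07 from edgeR). Its relatives differed from it. *Unc13a*, the main Munc13 of forebrain synapses, averaged 21.2 ± 4.71 CPM in TRAP (SD, n = 9) and 22.2 ± 3.16 CPM in input (SD, n = 4). *Unc13b* averaged 7.58 ± 2.54 CPM in TRAP and 7.61 ± 1.0 CPM in input, and neither passed the test.

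Of the scaffold genes of the active zone, *Erc1*, *Erc2*, *Pclo* and *Rims2* were higher in TRAP, and *Bsn* did not pass. *Erc1* and *Erc2* encode ELKS proteins, which bind RIM and bassoon. *Erc1* averaged 19.7 ± 5.69 CPM in TRAP and 6.79 ± 1.91 CPM in input (log2 fold change 1.58, SE 0.27, FDR = 0.000178). About 11.8% of its exonic bases overlap another annotated gene, so part of its reads could belong there if strand was not used in counting. *Erc2* averaged 72.5 ± 9.35 CPM in TRAP and 31.0 ± 2.66 CPM in input (1.23, SE 0.14). *Pclo*, which encodes the giant scaffold piccolo, was also higher (1.29, SE 0.14), and *Rims2*, one of the RIM scaffolds, had a smaller difference (0.46, SE 0.13). *Bsn*, which encodes bassoon, the partner of piccolo, averaged 32.6 ± 10.3 CPM in TRAP and 30.7 ± 7.89 CPM in input and did not pass the test (FDR = 0.526). *Cadps* and *Cadps2* encode the CAPS priming proteins, which are best known for dense-core vesicles, the carriers of neuropeptides and of part of the monoamines. *Cadps*, the most abundant member of the group per length (29.3 CPM per kb in TRAP), had a log2 fold change of 0.99 (SE 0.17), and *Cadps2* of 0.69 (SE 0.20). The call of *Cadps2* was lost with the replicate block (0.46).

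Among the synaptotagmin and Doc2 genes, grouped here as calcium sensors, TRAP was higher for 6 of 11 and lower for 0, and 5 did not pass. *Syt1*, the fast calcium sensor for synchronous release in forebrain neurons (chr10:108497650-109010982, minus strand), was at 600 to 865 CPM in DSP-4 TRAP (median 651) and at 611, 599 and 787 CPM in saline TRAP, against 259 and 237 CPM in DSP-4 input and 231 and 261 CPM in saline input. The ranges did not overlap, and the log2 fold change was 1.45 (SE 0.13, FDR = 7.2e-07). *Syt2*, its counterpart at fast hindbrain synapses, had a log2 fold change of 0.95 (SE 0.25). *Syt4* and *Syt11*, synaptotagmins that do not bind calcium in the usual way, had log2 fold changes of 1.48 (SE 0.13) and 1.43 (SE 0.21). *Syt11* was the most abundant gene of the group per length, with 161 CPM per kb in TRAP. Some 14.5% of the exonic bases of *Syt4* overlap another annotated gene.

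*Syt10*, a synaptotagmin of dense-core vesicle exocytosis studied in olfactory bulb neurons, was scarce (chr15:89782393-89841860, minus strand). It was at 9.14 to 13.4 CPM in DSP-4 TRAP (median 11.5) and at 4.90, 7.22 and 9.17 CPM in saline TRAP, against 2.17 and 2.54 CPM in DSP-4 input and 3.73 and 2.50 CPM in saline input. Every TRAP library was above every input library, though saline TRAP replicate 4 and saline input replicate 5 were close. The log2 fold change was 1.72 (SE 0.26, FDR = 4.47e-05), with 2.26 in DSP-4 mice and 1.18 in saline mice. *Syt17* was the last gene of the group to pass (0.51, SE 0.15), and its call was lost with the replicate block (0.34). The genes of the group that did not pass were *Syt5* (−0.19), *Syt6* (−0.32), *Syt7* (0.19), *Syt9* (−0.33) and *Doc2b* (−0.27).

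The vesicle membrane genes were split between 6 higher, 1 lower and 3 that did not pass. *Slc10a4*, an orphan transporter on the vesicles of monoaminergic and cholinergic neurons, lies at chr5:73006883-73012955 on the plus strand. It was at 43.5 to 58.0 CPM in DSP-4 TRAP (median 50.5) and at 82.3, 74.3 and 79.1 CPM in saline TRAP, against 21.3 and 19.0 CPM in DSP-4 input and 27.5 and 22.8 CPM in saline input. All TRAP libraries were above all inputs (log2 fold change 1.49, SE 0.13, FDR = 4.77e-07), and the treatments did not overlap within TRAP. *Snap91*, which encodes the clathrin adaptor AP180, was higher by 1.42 on the log2 scale (SE 0.14). The SV2 genes, which encode transporter-like vesicle glycoproteins, were both higher, *Sv2b* by 0.82 (SE 0.15) and *Sv2a* by 0.50 (SE 0.18) on the log2 scale. The call of *Sv2a* was lost without DSP-4 input replicate 7 (0.44) or without saline input replicate 5 (0.40).

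The synapsins, which tether vesicles in the reserve pool, differed in direction. *Syn3* averaged 33.2 ± 6.81 CPM in TRAP and 14.04 ± 1.17 CPM in input (log2 fold change 1.27, SE 0.19), though 14.1% of its exonic bases overlap *Timp3*. *Syn2* averaged 416 ± 66.2 CPM in TRAP and 312 ± 23.5 CPM in input (0.42, SE 0.14), a call that was lost with the replicate block (0.38). *Syn1* averaged 135 ± 44.9 CPM in TRAP and 191 ± 36.2 CPM in input (−0.45, SE 0.22, FDR = 0.0953). The call of *Syn1* was the weakest of all, and it held when DSP-4 TRAP replicate 2, saline TRAP replicate 12 or saline input replicate 5 was left out but not when any other library was (−0.29 to −0.52 without those), and it was lost with the replicate block and with an offset for GC content (0.01). The most abundant vesicle membrane gene per length was *Syp*, which encodes synaptophysin, with 132 CPM per kb in TRAP and 151 CPM per kb in input. It did not pass the test (−0.21, SE 0.19), but it was lower in TRAP once DSP-4 TRAP replicate 2 was left out (−0.31), and 16.8% of its exonic bases overlap a gene on the other strand. Its relatives *Synpr* (0.11, SE 0.17) and *Sypl* (0.18, SE 0.24) did not pass either.

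The SNARE genes were the only role in which more members were lower (5) than higher (3). *Snap25*, the plasma membrane SNARE of neurons (chr2:136713453-136782428, plus strand), was the most abundant member per length in TRAP, with 697 CPM per kb in TRAP and 473 CPM per kb in input. It made up 23.8% to 32.2% of the members' summed CPM in TRAP. It was at 4185 to 5551 CPM in DSP-4 TRAP (median 5117) and at 4393, 4486 and 4107 CPM in saline TRAP, against 2745 and 2638 CPM in DSP-4 input and 4016 and 3447 CPM in saline input. TRAP exceeded input (log2 fold change 0.54, SE 0.12, FDR = 0.00127), but the lowest TRAP and the highest input libraries, both of saline mice, differed by little. The fold change turned to −0.20 and the call ended with an offset for GC content, and in saline mice alone the enrichment did not pass (0.21, SE 0.17). *Stxbp5*, which encodes tomosyn, an inhibitor of SNARE assembly, had a log2 fold change of 1.34 (SE 0.18), and *Nsf* of 0.54 (SE 0.17).

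The members that were lower lay mostly among the core SNAREs and their helpers. *Napb*, which encodes the brain-specific beta-SNAP adaptor of NSF (chr2:148693985-148732467, minus strand), was at 34.8 to 137 CPM in DSP-4 TRAP (median 99.5) and at 125, 49.7 and 100 CPM in saline TRAP, against 195 and 189 CPM in DSP-4 input and 316 and 246 CPM in saline input. Its log2 fold change of −1.30 (SE 0.28, FDR = 0.00119) was the lowest of the members, and no TRAP library reached an input library. *Napa*, which encodes alpha-SNAP, was also lower in every TRAP library, with 359 ± 29.9 CPM in TRAP and 429 ± 7.49 CPM in input (−0.28, SE 0.10). Its call was lost with library totals (−0.20), with the replicate block (−0.21) and with an offset for GC content, where the sign turned (0.04).

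*Vamp1* and *Vamp2* encode synaptobrevins, the SNAREs on the vesicle. *Vamp1* (chr6:125215551-125245964, plus strand) was at 837 to 1377 CPM in DSP-4 TRAP (median 1027) and at 1027, 816 and 922 CPM in saline TRAP, against 2052 and 1820 CPM in DSP-4 input and 1773 and 1801 CPM in saline input. The groups were far apart, and TRAP held about 0.528 of the input level (log2 fold change −0.92, SE 0.13, FDR = 2.66e-05). *Vamp2* averaged 584 ± 206 CPM in TRAP and 707 ± 189 CPM in input and did not pass (−0.27, SE 0.24), though it was lower once DSP-4 TRAP replicate 2 was left out (−0.39).

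*Cplx1*, which encodes complexin 1, a clamp and activator of the SNARE complex, was at 620 to 1404 CPM in DSP-4 TRAP (median 811) and at 786, 888 and 885 CPM in saline TRAP, against 1677 and 1647 CPM in DSP-4 input and 1028 and 1702 CPM in saline input. DSP-4 TRAP replicates 2 and 3 overlapped saline input replicate 5, and the log2 fold change was −0.79 (SE 0.20, FDR = 0.0032). Per length it was the most abundant member in input (692 CPM per kb) but not in TRAP (400 CPM per kb). *Cplx2* averaged 152 ± 106 CPM in TRAP and 131 ± 41.9 CPM in input, a spread in TRAP set largely by DSP-4 TRAP replicate 2 at 414 CPM. *Stx1a*, which encodes syntaxin 1A, averaged 20.7 ± 4.42 CPM in TRAP and 29.6 ± 5.04 CPM in input (−0.48, SE 0.18). Its call was lost without DSP-4 input replicate 7 (−0.41) or saline input replicate 12 (−0.33), and with an offset for GC content (0.00).

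**Figure D2:**
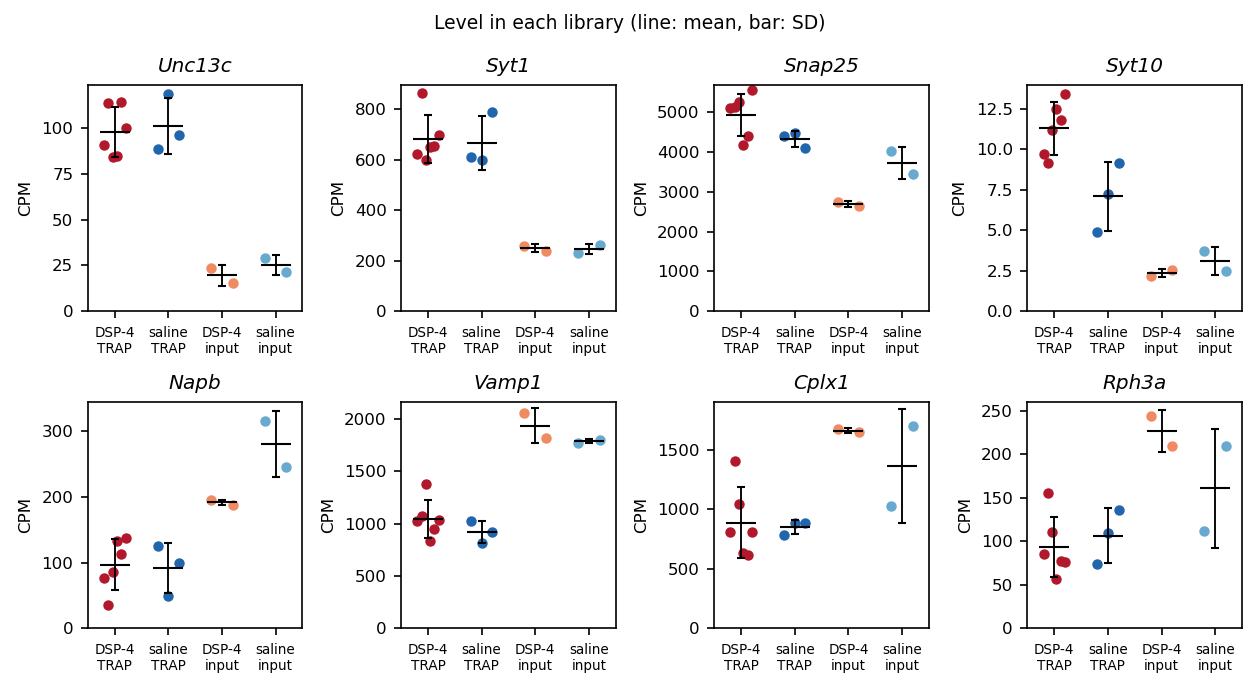
TMM-scaled CPM in each library for 8 members, with 1 point per library, the mean as a line and the SD as a bar, in DSP-4 TRAP (n = 6), saline TRAP (n = 3), DSP-4 input (n = 2) and saline input (n = 2). *Unc13c*, *Syt1* and *Syt10* are higher in every TRAP library than in any input library, *Napb* and *Vamp1* are lower in every TRAP library, and *Cplx1* and *Rph3a* overlap.

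The Rab3 genes held 1 member that was higher in TRAP, *Rab3c*, and 1 that was lower, *Rab3a*. Rab3 proteins are small GTPases that bind vesicles and recruit effectors such as RIM and rabphilin. From the coding sequences of the longest complete transcripts in GENCODE vM21, the encoded Rab3a and Rab3c share 80.6% of residues, Rab3a and Rab3b 75.4%, and Rab3b and Rab3c 76.8%. The longest run of identical coding bases is 20, 17 and 22 bases in those pairs, so reads longer than that could be told apart in the coding part. The first stretch of 20 codons whose residues are the same in all 3 proteins, which starts at residue 26 in Rab3a and Rab3b and at residue 34 in Rab3c, is printed to show how far the genes differ under an unchanged protein. Capitals mark G or C at the last position of a codon.
Rab3a: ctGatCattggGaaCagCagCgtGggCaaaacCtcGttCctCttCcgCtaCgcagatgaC
Rab3b: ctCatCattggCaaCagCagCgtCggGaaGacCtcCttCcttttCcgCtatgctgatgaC
Rab3c: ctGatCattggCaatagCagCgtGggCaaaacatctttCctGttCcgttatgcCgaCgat
Of the 20 last positions, 16 are G or C in *Rab3a*, 15 in *Rab3b* and 12 in *Rab3c*. Over the whole coding sequence, last positions are 72.4% G or C in *Rab3a*, 69.4% in *Rab3b* and 59.2% in *Rab3c*.

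*Rab3c* (chr13:110054187-110280996, minus strand) was at 357 to 931 CPM in DSP-4 TRAP (median 425) and at 301, 387 and 609 CPM in saline TRAP, against 142 and 121 CPM in DSP-4 input and 142 and 136 CPM in saline input. All TRAP libraries exceeded all inputs (log2 fold change 1.78, SE 0.26, FDR = 4.41e-05). *Rab3a* (chr8:70754679-70758677, plus strand), the most abundant member of the cycle per length (488 CPM per kb in TRAP and 599 CPM per kb in input), was at 897 to 1647 CPM in DSP-4 TRAP (median 1007) and at 1001, 1063 and 1072 CPM in saline TRAP, against 1301 and 1352 CPM in DSP-4 input and 1302 and 1375 CPM in saline input. DSP-4 TRAP replicate 2, at 1647 CPM, was the only TRAP library above the inputs. The log2 fold change was −0.31 (SE 0.15, FDR = 0.0876), and the call was lost when any library other than DSP-4 TRAP replicate 2 was left out (−0.28 to −0.34), with the replicate block and with an offset for GC content (0.00). *Rab3b* (chr4:108879063-108943324, plus strand) averaged 63.1 ± 11.2 CPM in TRAP and 58.1 ± 2.75 CPM in input and did not pass (0.18, SE 0.11).

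Of the partners, *Rab3gap1*, which encodes the catalytic subunit of the Rab3 GTPase-activating protein, was higher in TRAP (0.78, SE 0.15). *Rph3a*, which encodes rabphilin, an effector of Rab3, was at 56.8 to 155 CPM in DSP-4 TRAP (median 81.8) and at 73.9, 110 and 136 CPM in saline TRAP, against 244 and 210 CPM in DSP-4 input and 112 and 210 CPM in saline input. Saline input replicate 5 lay within the TRAP range, and the log2 fold change was −0.93 (SE 0.23, FDR = 0.00347).

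**Figure D3:**
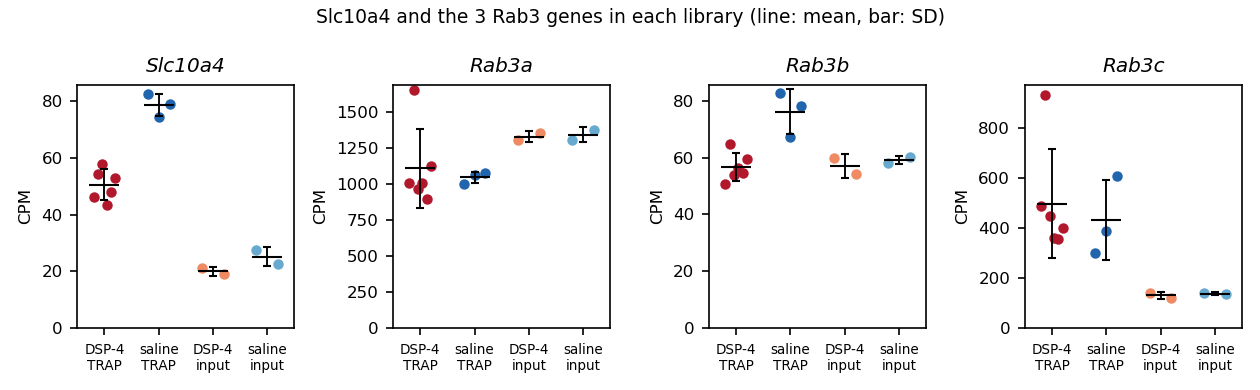
TMM-scaled CPM of *Slc10a4*, *Rab3a*, *Rab3b* and *Rab3c* in each library, with the mean as a line and the SD as a bar, in DSP-4 TRAP, saline TRAP, DSP-4 input and saline input. *Slc10a4* and *Rab3b* are lower in every DSP-4 TRAP library than in any saline TRAP library, and *Rab3c* is higher in every TRAP library than in any input library.

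Values of close paralogs outside Rab3 can be set side by side. The complexins share 84.3% of residues, and *Cplx1* had a log2 fold change of −0.79 while *Cplx2* had 0.15 (SE 0.40), which turned to −0.11 without DSP-4 TRAP replicate 2 and to −0.09 without saline input replicate 5. The SNAP adaptors share 82.9%, and *Napa* had −0.28 while *Napb* had −1.30. The longest run of identical coding bases was 32 for the complexins and 26 for the SNAP adaptors. These differences between paralogs were not tested.

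TRAP over input moved with base composition. Across all 11820 annotated genes, which are not independent, a higher GC content of the longest transcript went with a lower log2 fold change (Spearman rho of −0.519), and the 46 members showed the same slope (−0.455, a description without a test). Of 26 members under 50% GC, 18 were higher and 2 lower, while 48.7% of all genes under 50% were higher and 15.2% lower. Of 20 members at 50% or more, 6 were higher and 6 lower, beside 12.9% higher and 43.1% lower for all genes in that range. An offset for GC content in each library was also fitted. It was set on library totals without TMM, so GC content and scaling cannot be told apart in it. Library totals alone already ended the calls of *Syn1*, *Rab3a* and *Napa*. With the offset 25 members were higher and 7 lower. *Snap25*, *Syn1*, *Stx1a*, *Rab3a* and *Napa* lost their calls, with the values given above. *Syt7* (0.49) and *Bsn* (0.74) became higher, and the synaptophysin family members *Syp* (−0.50), *Sypl* (−0.56) and *Synpr* (−0.63) became lower. *Napb* and *Vamp1*, at 44.2% and 47.0% GC, were the only members under 50% GC that were lower, and *Slc10a4*, at 55.0% GC, was higher against the trend. The log2 fold change also rose with exonic length, with a Spearman rho of 0.432 over all annotated genes and 0.35 over the members. Median exonic length was 8588 bases in members that were higher, 3542 in members that were lower and 4564 in all annotated genes. The part of length in the calls was not tested.

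**Figure D4:**
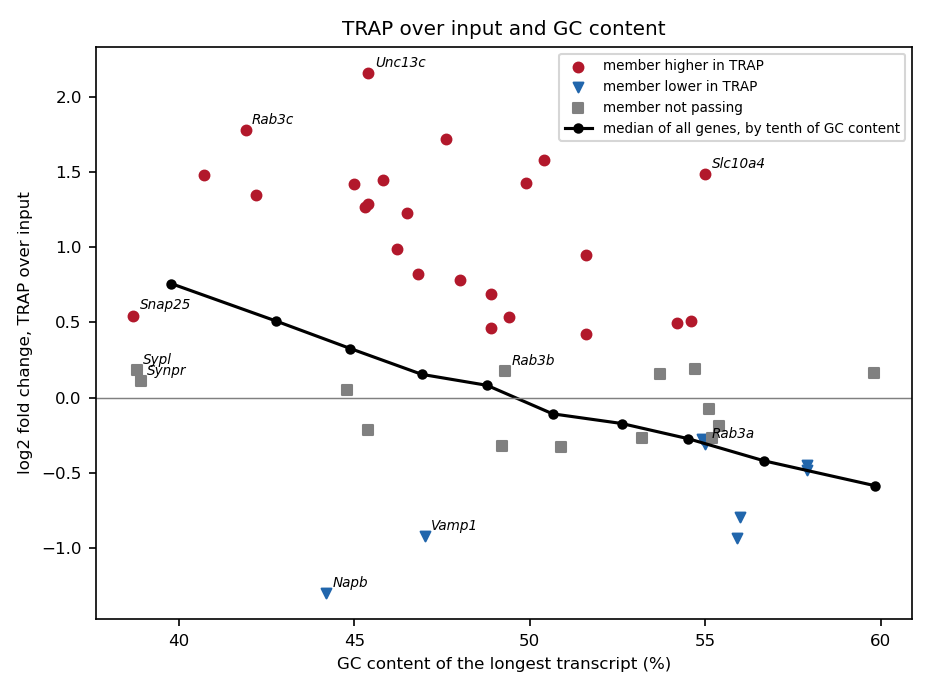
Log2 fold change of TRAP over input against the GC content of the longest transcript for the 46 members, by call, with the median of all annotated genes in 10 classes of GC content as a line. The line falls across the plot, most members that were higher lie above it, and *Napb* and *Vamp1* lie far below it.

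The enrichment was also measured in each treatment. In DSP-4 mice, 21 members were higher in TRAP (27.3% of all genes were) and 6 were lower (23.8% of all genes). In saline mice, 21 were higher (19.5% of all genes) and 2, *Vamp1* and *Napb*, were lower (15.7% of all genes). The 21 in saline mice became 12 without saline input replicate 12, and the 6 in DSP-4 mice became 10 without DSP-4 TRAP replicate 2 and 3 without either DSP-4 input. The difference between the enrichments, tested as an interaction over the 13 libraries, passed for 0 members and for 0% of all genes in edgeR, and for 0 members in DESeq2 and limma. At an unadjusted p under 0.05 stood 4 members (8.70%, against 2.67% of all genes), *Snap25*, *Syt4*, *Syt10* and *Bsn*. *Snap25* had a log2 enrichment of 0.88 in DSP-4 mice and 0.21 in saline mice, a difference of 0.66 (SE 0.23, FDR of 1 from edgeR). Its input was lower in DSP-4 mice, with 2745 and 2638 CPM in DSP-4 input and 4016 and 3447 CPM in saline input. In DSP-4 over saline in input, 0 members and 0% of all genes passed in edgeR, with 0 members in DESeq2 and limma. *Snap25* (−0.47, SE 0.19) and *Syt4* (−0.47, SE 0.20) were the members with an unadjusted p under 0.05 there (2.55% of all genes), with 2 libraries a group.

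After DSP-4, no release gene passed the test in noradrenergic TRAP. In DSP-4 over saline over the 9 TRAP libraries, 0 of the 46 members were higher and 0 were lower at an FDR under 0.1 in edgeR, and 0 were called by DESeq2 or limma. Of all genes, 0% were higher and 0.0250% lower, namely the noradrenergic genes *Slc6a2* (−1.48), *Dbh* (−1.26) and *Gal* (−1.18). The members' median was −0.01, with 23 above 0 and 23 below, and their median SE was 0.21. At an unadjusted p under 0.05 stood 3 members (6.52%, against 1.88% of all genes), *Slc10a4*, *Rab3b* and *Syt10*, which the study itself singled out on these samples. Those p-values are therefore not independent evidence.

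*Slc10a4* had the smallest edgeR p of the members. It averaged 50.5 ± 5.46 CPM in DSP-4 TRAP (SD, n = 6) and 78.5 ± 4.03 CPM in saline TRAP (SD, n = 3), 0.639 of the saline level (log2 fold change −0.65, SE 0.15, FDR of 1 from edgeR). The adjusted p ranged from 0.116, with DESeq2, to 1 over the alternatives, and the log2 fold change from −0.72 to −0.61. In input it was at 21.3 and 19.0 CPM in DSP-4 mice and at 27.5 and 22.8 CPM in saline mice (−0.32, SE 0.20). *Rab3b* averaged 56.6 ± 4.89 CPM in DSP-4 TRAP and 76.1 ± 7.90 CPM in saline TRAP (−0.44, SE 0.14, FDR of 1 from edgeR). These were the only members with all 6 DSP-4 TRAP libraries below all 3 saline TRAP libraries, an order found in 0.566% of all genes. About 9% of the exonic bases of *Rab3b* overlap a gene on the other strand. The noradrenergic markers' summed level also did not overlap, at 653 to 914 CPM in DSP-4 TRAP and 1034 to 1220 CPM in saline TRAP. That of the cholinergic markers was 164 to 225 CPM in DSP-4 TRAP and 212 to 224 CPM in saline TRAP. The serotonergic markers summed to 105 to 183 CPM in DSP-4 TRAP and 128 to 174 CPM in saline TRAP. The part of these cell types in the levels of *Slc10a4* and *Rab3b* was not tested.

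*Syt10* went the other way. It averaged 11.3 ± 1.64 CPM in DSP-4 TRAP and 7.10 ± 2.14 CPM in saline TRAP (0.66, SE 0.28, FDR of 1 from edgeR), and DSP-4 TRAP replicate 2, at 9.14 CPM, was below saline TRAP replicate 12, at 9.17 CPM. No member had all DSP-4 TRAP libraries above all saline TRAP libraries, while 0.716% of all genes did. The next members by p were on the higher side *Synpr* (0.30, SE 0.21), *Syt9* (0.31, SE 0.23), *Snap25* (0.18, SE 0.14) and *Vamp1* (0.18, SE 0.16), and on the lower side *Pclo* (−0.24, SE 0.15), *Syn1* (−0.33, SE 0.26) and *Syt17* (−0.23, SE 0.18). The difference in each was within 2 SE of 0.

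**Figure D5:**
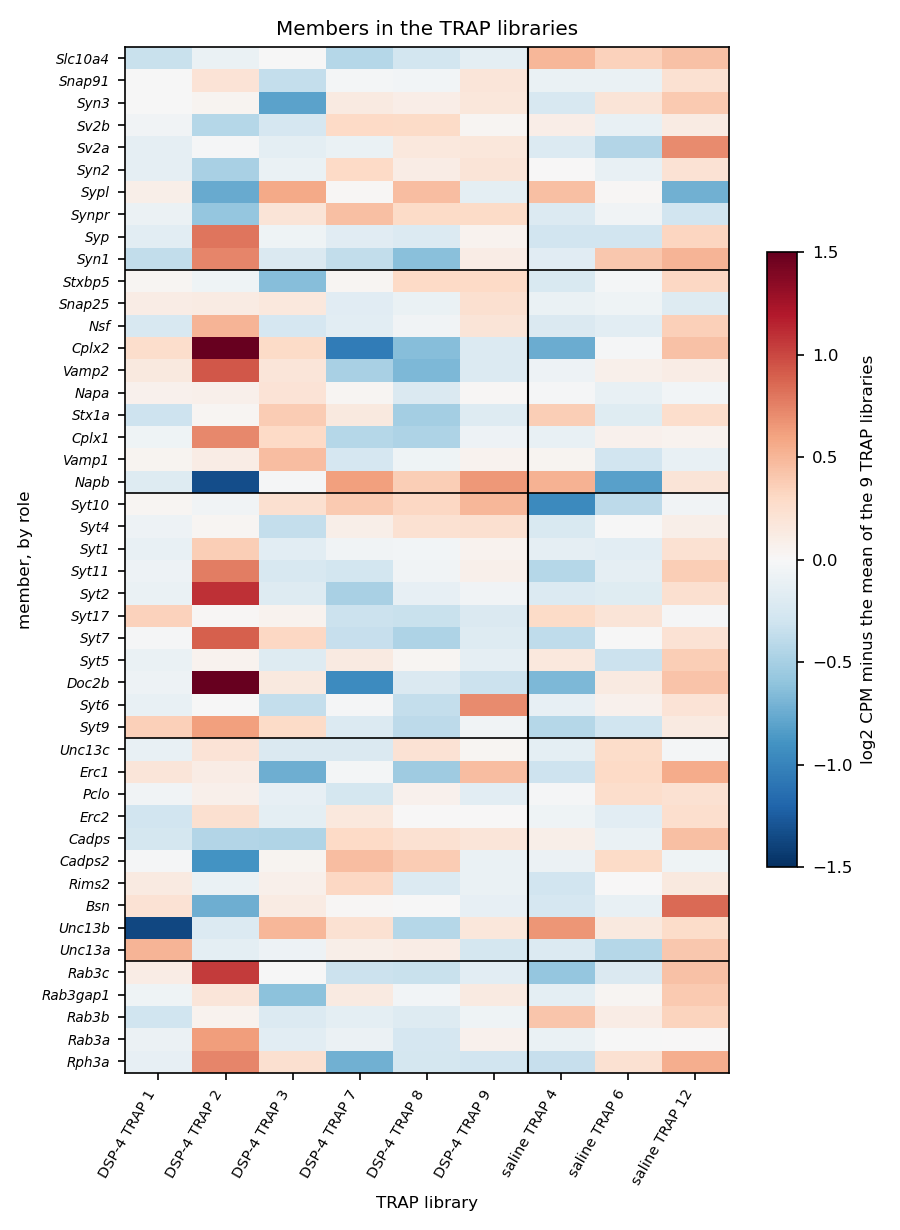
Log2 CPM of each member minus its mean over the 9 TRAP libraries, with members by role and by TRAP over input down the page and libraries across, DSP-4 left of saline (values past 1.5 take the end colour). DSP-4 TRAP replicate 2 holds strong colours in both directions, with *Cplx2*, *Doc2b* and *Rab3c* high and *Napb* low. DSP-4 TRAP replicate 1 is low in *Unc13b*, and *Slc10a4* and *Rab3b* part by treatment.

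Other genes of release and recycling gave the setting for the members. Of 58 further release genes measured, TRAP was higher for 19 (32.8%) and lower for 17 (29.3%), close to the shares of all genes, and 22 did not pass, with a median log2 fold change of 0.00. The highest were *Dmxl2* (1.92), which encodes rabconnectin, *Stxbp5l* (1.89), which encodes a second tomosyn, and *Slc17a6* (1.52), the vesicular glutamate transporter VGLUT2. The lowest were *Doc2a* (−2.61, SE 0.67), a calcium sensor of spontaneous release, the syntaxin gene *Stx2* (−1.55) and *Slc17a7* (−1.48), the vesicular glutamate transporter VGLUT1. *Doc2a* was scarce, with a mean of 2.96 CPM in TRAP and 18.7 CPM in input, and 39.4% of its exonic bases overlap a gene on the other strand. Of 34 genes of vesicle endocytosis, 17 were higher and 7 were lower, with a median of 0.25. The clathrin heavy chain gene *Cltc* (1.52), the synaptojanin gene *Synj1* (1.5) and the dynamin gene *Dnm3* (1.46) were the highest, and the epsin gene *Epn1* (−1.72), the endophilin gene *Sh3gl3* (−1.32) and the clathrin light chain gene *Cltb* (−1.20) the lowest. In DSP-4 over saline in TRAP, 0 of these 58 and 0 of these 34 genes passed in edgeR.

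For 3 homogenates, DSP-4 2, DSP-4 7 and saline 12, TRAP and input carry the same replicate number and were taken to share tissue. In these pairs 22 members were above input in all 3 (47.8%, against 33.7% of all genes) and 8 were below input in all 3 (17.4%, against 35.0%), and these include 21 of the 24 members that were higher and 7 of the 8 that were lower. With the replicate block over these pairs, 21 members were higher and 5 lower, and *Syn1*, *Syn2*, *Rab3a*, *Syt17*, *Napa* and *Cadps2* lost their calls. Over the 23 alternatives run for TRAP over input, 23 members held their call in every one, 19 of them higher and the 4 others lower (*Vamp1*, *Cplx1*, *Rph3a* and *Napb*).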

How the data were processed

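The 13 libraries were grouped by their labels and the study's methods. The deposited table holds whole-number counts for 12009 genes, which the authors made by aligning paired reads to mm10 with STAR and counting with featureCounts. Versions, annotation and strand setting: not given in the sources used here. The table is labelled as filtered and normalized, but it holds whole numbers with library totals of 17491357 to 29199550 and median-ratio size factors of 0.784 to 1.31, so it was treated as raw counts, which no source states outright. No gene had a mean count under 78.4, so low genes had been removed. All columns were used (0 unused), and 21 identifiers that are plain numbers stayed in library sizes and tests.

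Counts were scaled by TMM and tested with edgeR 4.0.16 (quasi-likelihood, two-sided, Benjamini-Hochberg adjustment over all genes, FDR 0.1) in R 4.3.3. TRAP over input, the interaction and DSP-4 over saline in input used all 13 libraries. DSP-4 over saline in TRAP used the 9 TRAP libraries. Alternatives used limma 3.58.1, DESeq2 1.42.0, other scaling, a filter, a GC offset on library totals without TMM, a replicate block and left-out libraries. Tables, coding sequences and figures used Python 3.11.15 with pandas 2.3.3, Biopython 1.88 and matplotlib 3.10.9. The edgeR steps were also run on simulated counts, in which far fewer genes changed than passed in TRAP over input. The simulation held no shared homogenates and no trend with GC content or length, so it does not check the tests under those conditions.

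Libraries of a group differed by a chi-square per gene of at least 24.4, so none was a repeat. Each library is a pool of mice, and p-values measure the spread between pools. By the labels and methods, TRAP and input with the same number were taken to come from 1 homogenate. Their deviations from group means correlated at 0.181, 0.266 and 0.295. Libraries of different numbers were not compared and each input group held 2 libraries, so these values cannot decide the pairing. Coordinates, exonic length (union of exons), GC content and coding sequences are from GENCODE vM21 on GRCm38, matched by name for 11560 genes and by synonym for 260, with 189 unmatched.

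The members, the other gene lists and the tests were chosen with earlier results of these data known. Genes named are the 8 largest and 8 smallest log2 fold changes that passed in TRAP over input, the 5 smallest p in each direction for DSP-4 over saline in TRAP, the most abundant member of each role per length, close paralogs, and the 3 highest and 3 lowest that passed in each further list. Other members are named where a role or a call turned on them, and were chosen after their values were seen.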

Additional observations from a re-analysis of the deposited data

Results flagged for a closer look

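Within DSP-4 TRAP, the highest or lowest library of 6 lay far from the rest, by Dixon's ratio at the 95% level, in 11 of the 46 members (23.9%, against 10.9% of all genes). Chance alone flags about 1 in 20. DSP-4 TRAP replicate 2 was the high library for *Syp* (1167 CPM), *Cplx2* (414.3 CPM), *Rab3a* (1647 CPM), *Rab3c* (931.1 CPM), *Syt1* (865.3 CPM), *Syt2* (447.3 CPM), *Syt11* (1386 CPM) and *Doc2b* (26.98 CPM). DSP-4 TRAP replicate 3 was the low library for *Syn3* (18.64 CPM) and *Rab3gap1* (72.95 CPM). DSP-4 TRAP replicate 9 was the high library for *Syt6* (31.84 CPM). The oligodendrocyte markers' sum was also highest in replicate 2, and its part in these values was not tested.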

How the results depend on the processing

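For TRAP over input, 23 alternatives were run. The number of members higher was 21 to 25 in every one. The number lower, 8 as reported, was 5 with library totals, 5 with the fixed replicate block over 3 pairs, and 5 to 11 with each library left out (11 without DSP-4 TRAP replicate 2, 5 without DSP-4 input replicate 7 or saline input replicate 12). It was 12 without DSP-4 TRAP replicates 2 and 3 together. In DSP-4 mice, the number lower was 12 without DSP-4 TRAP replicates 2 and 3 together and 3 to 10 with each library left out. In saline mice, the number higher was 12 to 24 with each library left out (12 without saline input replicate 12), and the number lower was 4 with DESeq2, 4 with the random replicate block in limma-voom, 6 without DSP-4 TRAP replicates 2 and 3 together, and 2 to 5 with each library left out (5 without DSP-4 TRAP replicate 2). The alternatives within each treatment were chosen after seeing the data. The block moved no other count of members by over 1.5 times. In TRAP over input the fixed block ended the calls of *Syn1*, *Syn2*, *Rab3a*, *Syt17*, *Napa* and *Cadps2* and no others, and the random block ended none.

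Some members changed sign in TRAP over input, given here as log2 fold changes. With the GC offset and no replicate block they were *Syn1* 0.01, *Sypl* −0.56, *Synpr* −0.63, *Snap25* −0.20, *Unc13a* 0.25, *Unc13b* −0.28, *Rab3a* 0.00, *Syt5* 0.15, *Napa* 0.04 and *Doc2b* 0.04. With the replicate block and the GC offset together they were *Syn1* 0.08, *Sypl* −0.95, *Synpr* −0.63, *Snap25* −0.17, *Unc13a* 0.31, *Unc13b* −0.28, *Rab3a* 0.17, *Syt5* 0.28, *Napa* 0.08 and *Doc2b* 0.07. With the replicate block alone, *Sypl* was −0.16 and *Bsn* −0.01. *Unc13a* was 0.00 with library totals, and *Unc13b* was 0.00 in limma, −0.02 with the random replicate block and −0.03 without DSP-4 TRAP replicates 2 and 3, where *Cplx2* was −0.18. With each library left out, *Synpr* ranged from 0.00 to 0.23, *Cplx2* from −0.11 to 0.50, *Unc13a* from −0.22 to 0.01, *Unc13b* from −0.04 to 0.14, *Syt7* from −0.03 to 0.50, *Bsn* from −0.05 to 0.25 and *Doc2b* from −0.51 to 0.05. The cause was not tested.

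In DSP-4 over saline in TRAP (17 alternatives) and the difference of the enrichments (21 alternatives), 0 members were called under every one of them, as in DSP-4 over saline in input. Each treatment had 2 input libraries, which limits the precision of every value over input. If strand was not used in counting, reads of overlapping genes could enter *Syp* (16.8% of exonic bases), *Syt4*, *Syn3* and *Erc1*.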
